A study of Mus musculus with 178 samples.

Results

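The 10 genes described here are products of blood platelets and of the megakaryocytes of the bone marrow from which platelets bud. Pf4 and Ppbp encode chemokines stored in the alpha granules. Itga2b and Itgb3 encode the 2 subunits of the fibrinogen receptor, which links activated platelets to each other. Gp1ba, Gp5 and Gp9 encode subunits of the receptor for von Willebrand factor, and Vwf encodes that factor itself, which endothelial cells also make. Gp6 encodes the collagen receptor, and Treml1 encodes a receptor that reaches the platelet surface from the granules upon activation. The genes were taken by symbol from the count table, which lists 55450 genes, and all 10 were found.

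Platelets carry no nucleus, and their RNA was loaded into them by the megakaryocyte. In whole blood their transcripts are therefore read together with those of leukocytes and of young red cells. Platelets arrest on damaged vessel walls through von Willebrand factor and collagen, aggregate through fibrinogen, and release chemokines and growth factors from their granules. In tumor biology they are known for coating circulating tumor cells and for carrying TGF-beta.

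The series followed whole blood of C57BL/6J mice of both sexes, 6 to 8 weeks old, that carried syngeneic 4MOSC1 tumors, a tobacco-signature oral squamous carcinoma line, in the tongue or the buccal mucosa. All mice received antibody RMP1-14 against PD-1, so no group without treatment was available, and the mice were later divided into 15 responders and 30 non-responders by the course of their tumors. Blood was drawn on Day 4, before treatment, and on Days 9, 17 and 24, which gave 15, 15, 14 and 15 libraries of responders and 29, 30, 30 and 30 libraries of non-responders. Because response was observed and not assigned, each comparison of responders with non-responders is a comparison of mice that may differ in other ways, tumor site and sex included, and these were not given per mouse in the labels. Mice were the replicates, and the libraries of 1 mouse on different days share that animal.

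The 178 libraries held 26058944 to 82208651 counts (median 51971360.5), of which hemoglobin genes took 68.7% to 88.0%. The library of non-responder 29 from Day 24 lay far from the rest in its TMM scaling factor, the lowest at 0.0848, whereas the other factors reached 2.46. Its hemoglobin share was also the highest (88.0%) but not far apart, since responder 8 on Day 4 had 87.8%, with a factor of 0.266. The mouse numbers in the library titles have 4 digits for 18 mice (11 responders, 7 non-responders) and 3 digits for 27 mice (4 responders, 23 non-responders), and what this numbering marks is not stated. The Day 17 library of non-responder 24 carries the opposite response label from that mouse's other libraries and was kept with its mouse. Fewer platelets in the blood and less RNA of these genes per platelet cannot be told apart in such bulk libraries.

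The promoters of Pf4, Gp1ba and Gp9 are shown because by Day 24 Pf4 had the largest fitted fall of the members in responders and Gp1ba in non-responders, and Gp9 belongs to the same receptor as Gp1ba. GATA and ETS factors are known regulators of megakaryocyte genes. The sequences are the 250 bases before the RefSeq gene start in build GRCm38.p6, all on the plus strand and written 5′ to 3′. Capitals mark every match to GATAA, which reads as TTATC when on the other strand and is the core of sites for GATA factors. They also mark every match to GGAAG, which reads as CTTCC when on the other strand and is a core of sites for ETS factors.
Pf4, chr5:90772185-90772434: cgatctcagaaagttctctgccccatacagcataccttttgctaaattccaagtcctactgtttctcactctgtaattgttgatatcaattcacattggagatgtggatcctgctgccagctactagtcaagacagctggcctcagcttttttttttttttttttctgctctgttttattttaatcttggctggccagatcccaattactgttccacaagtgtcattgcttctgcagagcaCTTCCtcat
Gp1ba, chr11:70638872-70639121: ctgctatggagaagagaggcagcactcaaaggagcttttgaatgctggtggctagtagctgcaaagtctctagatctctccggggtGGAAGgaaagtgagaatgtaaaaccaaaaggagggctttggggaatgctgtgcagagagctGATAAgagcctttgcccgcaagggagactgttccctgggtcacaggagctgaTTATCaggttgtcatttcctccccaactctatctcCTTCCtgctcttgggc
Gp9, chr6:87777820-87778069: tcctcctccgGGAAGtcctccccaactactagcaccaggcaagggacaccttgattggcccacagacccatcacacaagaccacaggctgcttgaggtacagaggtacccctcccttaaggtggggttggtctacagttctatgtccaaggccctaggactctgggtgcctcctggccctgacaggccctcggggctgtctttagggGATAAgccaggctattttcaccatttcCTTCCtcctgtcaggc
A promoter entry was at hand for 8 of the 10 genes, all but Itgb3 and Vwf. GATAA was in 4 of the 8 (Gp1ba, Gp5, Gp6 and Gp9) against 22.6% of the 32851 promoters of that length, and GGAAG was in 7 of the 8 against 64.1%. TGAGTCA, which reads as TGACTCA when on the other strand and is the core bound by NF-E2 and AP-1, was in 0 of the 8 and in 4.46% of all. These matches are descriptions of letters and not of binding. Pf4 and Ppbp lie next to each other on chromosome 5, with 2371 bases and 0 protein-coding genes between them.

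All 10 genes were well above the detection limit in whole blood. None was at 0 in any of the 178 libraries, and the lowest count was 96, for Gp1ba. On the length-corrected TPM scale the chemokines led. Pf4 had a mean of 91.9 TPM ± 37.7 (SD, n = 178 libraries) and Ppbp a mean of 82.9 TPM ± 32.6. Within libraries, Pf4 exceeded Ppbp in 134 of the 178. The fibrinogen receptor subunit Itga2b followed with 31.5 TPM ± 10.8 and the von Willebrand receptor subunit Gp9 with 29.6 TPM ± 10.3, with Itga2b above Gp9 in 137 libraries. In both pairs of neighbors the order thus turned in some libraries.

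Below them the order was nearly the same in every library. Treml1 (9.30 TPM), Vwf (6.41), Itgb3 (4.77), Gp5 (2.88), Gp6 (1.72) and Gp1ba (1.36 TPM) each exceeded the next in at least 174 of the 178 libraries. The order of the group means was the same in all 8 groups of day and response. The 2 integrin subunits, which form a 1:1 complex on the platelet, thus stood at 31.5 and 4.77 TPM. The 3 subunits of the von Willebrand receptor that are among the 10 genes spanned 1.36 to 29.6 TPM. The chemokines Pf4 and Ppbp together held between 63.6% and 69.4% of the summed TPM of the 10 genes in the group means.

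Day by day, the abundance of each gene was next compared on the log2 CPM scale, that is counts divided by the TMM-scaled library size, which sets the bulk of expressed genes equal between libraries. In non-responders, Pf4 ranged from 5.02 to 8.02 (median 5.91) on Day 4 and from 4.42 to 7.43 (median 5.46) on Day 24. In responders, it ranged from 5.59 to 7.99 (median 6.27) on Day 4 and from 4.73 to 6.71 (median 5.91) on Day 24. The ranges of the days overlapped broadly in both groups, with the highest Day 4 libraries above all others of the group.

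**Figure D1:**
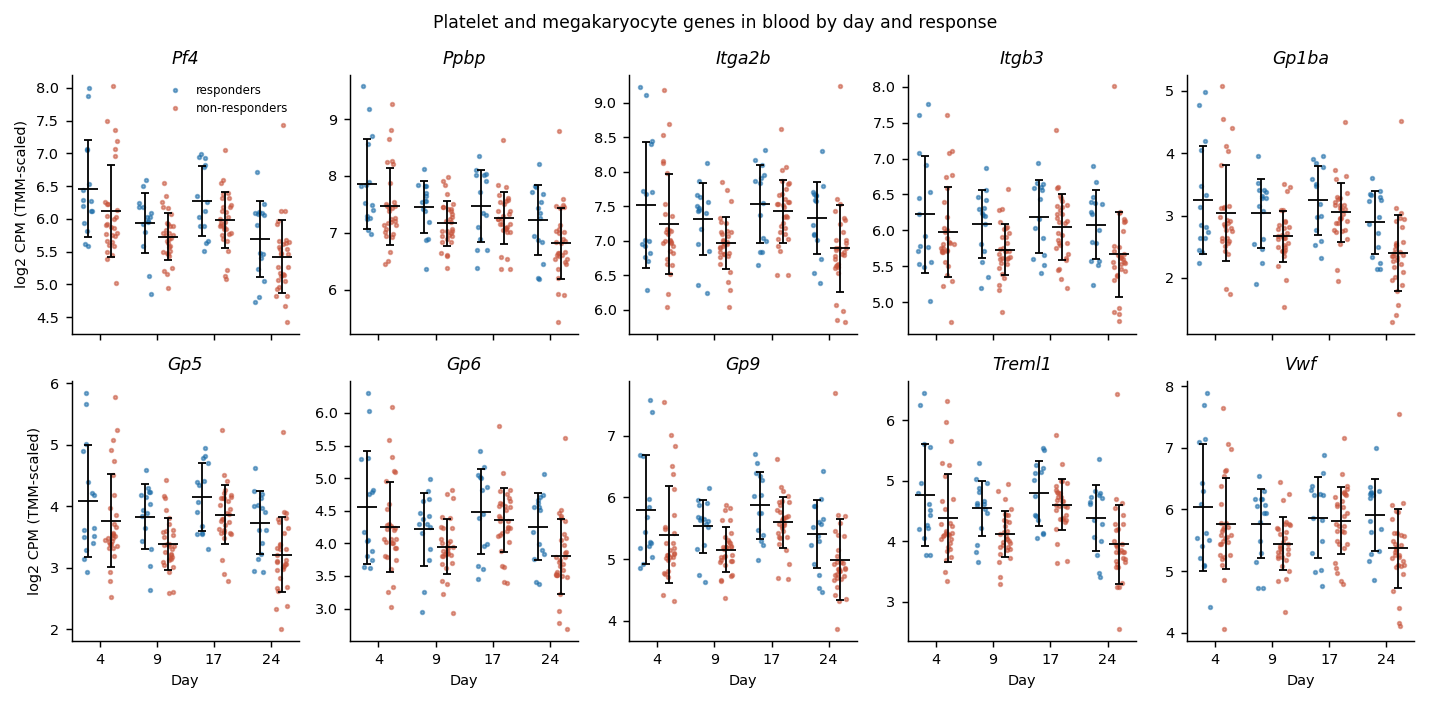
TMM-scaled log2 CPM (vertical axis) of the 10 genes by day (horizontal axis), each point 1 library, responders and non-responders side by side, black marks the mean ± SD. The SD is largest on Day 4 for each gene in both groups, and the Pf4 means fall from 6.46 to 5.70 in responders and from 6.12 to 5.42 in non-responders between Day 4 and Day 24.

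In non-responders, all 10 genes were called lower on Day 9 than on Day 4, and 9 of the 10 on Day 24. In the 7 non-responders with 4-digit numbers, however, 8 of 10 fitted changes on Day 9 and 10 of 10 on Day 24 lay above 0, with 0 called, and on Day 24 the count was 3 of 10 without the library of non-responder 29. On Day 9, 10 of 10 passed the test for a fall (edgeR quasi-likelihood, adjusted p of at most 0.05) against a background of 27.5% of all 13009 genes tested called lower and 23.3% called higher. The falls were alike in size, from 0.36 for Itgb3 to 0.55 for Pf4 on the log2 scale. For Pf4 the log2 change was -0.55 (SE 0.15, adjusted p = 0.000982), and 21 of 29 mice were lower on Day 9 than on Day 4. The median change within mice was smaller than the fitted mean, -0.16 for Pf4, and for Gp9, the small leucine-rich subunit of the von Willebrand receptor, 14 of 29 mice were lower against 15 higher. With each mouse as a replicate block 9 of 10 were called, Gp9 being the exception (-0.34, SE 0.16, adjusted p = 0.0622). Without non-responder 17, whose Day 4 library had a mean log2 CPM of 7.25 over the 10 genes, 4 of 10 were called.

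On Day 17, 0 of the 10 genes were called in non-responders by edgeR (background 24.2% lower, 21.9% higher), with 2 at an unadjusted p under 0.05 and 0 by DESeq2, and 1 or 2 when non-responder 21, 24, 26, 28 or 29 was left out. Pf4 and Ppbp had log2 changes of -0.30 (SE 0.15) and -0.33 (SE 0.15), and the other 8 genes lay between -0.14 and 0.06. In Itga2b, 19 of 29 mice were higher on Day 17 than on Day 4, and in Treml1 20 of 29. The numbering series went opposite ways, with 10 of 10 fitted changes above 0 in mice with 4-digit numbers (median 0.68, lowest adjusted p = 0.0501, 0 called) and 10 of 10 below 0 in mice with 3-digit numbers (median -0.27), where 3 were called lower against 27.8% of all genes. With limma 7 of 10 were called lower on either TPM scale, against 49.5% of all genes on log2(TPM + 0.1) and 60.3% on log2(TPM + 1).

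On Day 24, all 10 fitted changes in non-responders lay below 0 and 9 of the 10 genes were called lower, against 24.8% of all genes called lower and 23.8% called higher. Gp1ba, the ligand-binding chain of the von Willebrand receptor, ranged from 1.74 to 5.07 (median 2.87) log2 CPM on Day 4 and from 1.29 to 4.51 (median 2.37) on Day 24. It fell by 0.80 on the log2 scale (SE 0.16, adjusted p = 1.38e-05) and was lower in 21 of 29 mice. Pf4 fell by 0.78 (SE 0.15, adjusted p = 8.16e-06) and was lower in 23 of 29 mice. Ppbp ranged from 6.45 to 9.27 (median 7.25) on Day 4 and from 5.42 to 8.79 (median 6.74) on Day 24, and fell by 0.69 (SE 0.15, adjusted p = 9.37e-05), with 22 of 29 mice lower.

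Among the other members, Gp5 fell by 0.70, close to Ppbp, and the collagen receptor Gp6 by 0.55, while Treml1 fell by 0.50, Gp9 by 0.46 and Vwf by 0.45. Of the fibrinogen receptor, Itga2b fell by 0.39 (SE 0.16, adjusted p = 0.0347), and the log2 change of Itgb3 was -0.31 (SE 0.15, adjusted p = 0.0697), which did not pass, though it did with the replicate block (-0.35, SE 0.13, adjusted p = 0.0253). In each of these genes 19 or 20 of the 29 mice were lower. On the same TMM scale 8 of 9 red cell markers were called higher on Day 24 (median log2 change 1.06), with total counts alone 6 were called higher and 2 lower (median 0.23), and their part in these values was not tested.

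In responders, the fitted changes of all 10 genes on Day 24 lay below 0 on the TMM scale (7 of 10 with total counts alone), and the 2 chemokines passed the test. These 2 of the 10 genes were called lower (background 9.94% lower, 7.44% higher of 12560 genes), with 7 at an unadjusted p under 0.05 and 3 by DESeq2. Pf4 fell by 0.87 on the log2 scale (SE 0.21, adjusted p = 0.00411), and 14 of 15 mice were lower. Ppbp ranged from 6.97 to 9.58 (median 7.53) log2 CPM on Day 4 and from 6.19 to 8.21 (median 7.35) on Day 24, and fell by 0.75 (SE 0.23, adjusted p = 0.0176), with 10 of 15 mice lower. The count was 1 without responder 2, 8 or 10, and 4 without responder 15, and with each mouse as a replicate block Gp9 was called too (-0.51, SE 0.19, adjusted p = 0.0479). None was called with total counts alone, where Pf4 had -0.57 (SE 0.18, adjusted p = 0.144), or within either numbering series, where the medians of the 10 genes were -0.36 (4-digit) and -0.83 (3-digit).

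Of the remaining responder values on Day 24, none passed. Itga2b had a log2 change of -0.40 (SE 0.23, adjusted p = 0.233), and 8 of 15 mice were lower with a median change of -0.07. In Itgb3 and Vwf, whose fitted changes also lay below 0, 8 of 15 mice were higher, with median changes of 0.04 and 0.05. Gp9 (-0.59, SE 0.23, adjusted p = 0.0598), Treml1 (-0.54) and Gp5 (-0.56) lay between the integrin subunits and the chemokines.

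Earlier in responders, Pf4 alone was called. On Day 9 it fell by 0.65 (SE 0.21, adjusted p = 0.0151), 12 of 15 mice were lower, and 1 of 10 genes called compares with 14.2% of all genes called lower and 13.5% called higher. Ppbp on that day had a log2 change of -0.57 (SE 0.23, adjusted p = 0.0516), and with the replicate block it was called (-0.48, SE 0.18, adjusted p = 0.0419), as it was by DESeq2. No gene was called on Day 9 without responder 1, 2 or 8, or with total counts alone, where Pf4 had -0.49 (SE 0.18, adjusted p = 0.169). On that day 0 of 10 were called in responders with 4-digit numbers (median -0.15) and 3 of 10 were called lower in the 4 with 3-digit numbers (median -1.23), against 3.31% of all genes in that fit. On Day 17, 0 of 10 were called (background 13.4% lower, 12.2% higher), with 1 at an unadjusted p under 0.05, 0 by DESeq2 and 1 without responder 5, and Pf4 had a log2 change of -0.31 (SE 0.21). All 10 fitted changes on Day 17 lay below 0 in all responders and in those with 3-digit numbers (median -1.14), whereas 7 of 10 lay above 0 in those with 4-digit numbers (median 0.17) and 7 of 10 in all responders with total counts alone. With each mouse as a replicate block 3 of 10 lay above 0 in responders (median -0.05) and 6 of 10 in non-responders (median 0.02), with 0 called. Both groups as a whole thus had their lowest fitted Pf4 level on Day 24. This did not hold in each numbering series, since the fitted Pf4 changes were -1.23 on Day 9 and -1.05 on Day 24 in responders with 3-digit numbers, and -0.07 and 0.12 in non-responders with 4-digit numbers (-0.38 on Day 24 without the library of non-responder 29). On the TMM scale Pf4 was nearer to its Day 4 level on Day 17 than on Day 9 in each group as a whole (in non-responders with 4-digit numbers the changes were -0.07 on Day 9 and 0.40 on Day 17), but in non-responders the order turned with total counts alone (-0.44 on Day 9, -0.57 on Day 17) and in the mean TPM (103 on Day 9, 89.9 on Day 17).

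Lymphocyte markers were called lower over the same days on the TMM scale. In responders these were 7 of 7 T cell markers on Day 9 (median log2 change -0.60), 6 on Day 17 (median -0.31) and 5 on Day 24 (median -0.39), and 3, 4 and 1 of 5 B cell markers, with 1 B cell marker called higher on Day 24. In non-responders, 7 of 7 T cell markers were called lower on each day (medians -0.63, -0.43 and -0.32) and 5, 4 and 3 of 5 B cell markers. Myeloid markers moved the other way on Day 9, with 3 of 8 neutrophil markers (median 0.50) and 4 of 8 monocyte markers (median 0.45) called higher in responders and 7 of 8 (median 0.93) and 8 of 8 (median 0.64) in non-responders. On Day 17, 5 and 6 of 8 neutrophil markers were called higher in responders and non-responders, and 1 was called lower in each. On Day 24, 0 and 5 were called higher. Of the 8 monocyte markers, 2 were called higher and 1 lower in responders and 5 higher in non-responders on Day 17, and 1 was called lower in responders and 2 higher and 2 lower in non-responders on Day 24. Of all genes on the TMM scale, 14.2%, 13.4% and 9.94% were called lower in responders on Days 9, 17 and 24, and 13.5%, 12.2% and 7.44% higher. In non-responders these shares were 27.5%, 24.2% and 24.8% lower and 23.3%, 21.9% and 23.8% higher. With total counts alone the T cell markers called lower on Days 9, 17 and 24 were 1, 0 and 0 in responders and 7 on each day in non-responders. On that scale 68.3% of all genes were called lower in non-responders on Day 17, and the shares for Days 9 and 24 are not given here. The part of these cells in the values of the 10 genes was not tested.

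**Figure D2:**
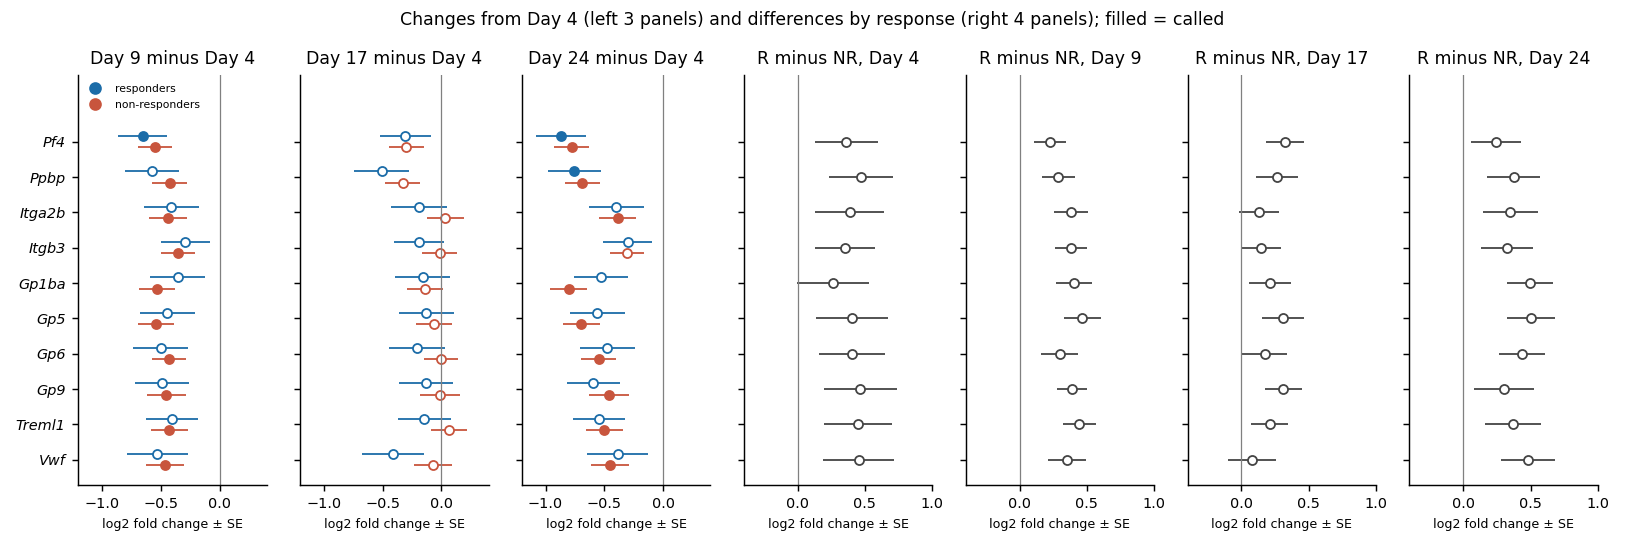
Fitted log2 fold changes ± SE (horizontal axis) of the 10 genes (vertical axis), in the left 3 panels against Day 4 for responders and non-responders and in the right 4 panels responders minus non-responders (R minus NR), with filled marks for called values. Non-responders have 10 filled marks on Day 9 and 9 on Day 24, all below 0, responders have 1 on Day 9 and 2 on Day 24, also below 0, and all marks on the right lie above 0 on this TMM scale (below 0 on Days 4 and 9 with total counts alone) and are open.

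Whether the changes differed between responders and non-responders was tested directly as a difference of changes over all 178 libraries. For none of the 10 genes did it pass on Day 9 (background 0% of 13688 genes called), Day 17 (0.351%) or Day 24 (3.76%). No member had an unadjusted p under 0.05 on any of these days, and DESeq2 called 0. For Pf4 on Day 24 the difference was -0.09 with a 95% interval from -0.59 to 0.42, and for Gp1ba 0.26 with an interval from -0.28 to 0.81. The median difference over the 10 genes was -0.02, -0.18 and 0.00 on Days 9, 17 and 24.

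The direction of this difference moved with the numbering series, the scale and 1 library. With the series as a covariate all 10 differences lay below 0 on each day, with medians of -0.45, -0.70 and -0.39 and 0 called. Within the series the medians were -0.31 (4-digit) and -0.64 (3-digit) on Day 9, -0.53 and -0.93 on Day 17, and -0.80 and 0.03 on Day 24, with 0 called in each. Without the library of non-responder 29 from Day 24 all 10 lay above 0 on Day 24, with a median of 0.16 and 0 called, and the 4-digit median was -0.33. With total counts alone 8 of 10 differences lay above 0 on Day 9 (median 0.14) and all 10 on Day 17 (median 0.45). The medians over all genes were then 0.00 and 0.51. With limma 8 of 10 also lay above 0 on Day 9 (median 0.15 on either TPM scale). On Day 17 all 10 did, with medians of 0.49 on log2(TPM + 0.1) and 0.44 on log2(TPM + 1). In these fits 0 were called on either day. On Day 24 all 10 were called higher in responders with total counts alone (7.41% of all genes), with limma on log2(TPM + 0.1) (7.81%) and with limma on log2(TPM + 1) (9.69%).

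At each day, responders were compared with non-responders, which on Day 4 asks whether the blood differed before treatment. On the TMM scale all 10 genes had higher fitted levels in responders on all 4 days, while with total counts alone all 10 were lower on Days 4 and 9 and 5 of 10 on Day 17. None reached the call of an adjusted p of at most 0.05 with 1.5-fold on the TMM scale. On that scale 5 of 9 red cell markers were called higher in responders on Day 4 (median log2 difference 1.05), 8 of 9 on Day 9 (median 0.86), 0 on Day 17 (median 0.22) and 0 on Day 24 (median -0.26). With total counts alone 0 were called higher on any day, and the medians were 0.12 on both Day 4 and Day 9. On Day 4 on the TMM scale, 7 of 7 neutrophil markers (median 0.43, 1 called) and 8 of 8 monocyte markers (median 0.34, 0 called) also had fitted differences above 0. The part of these cells in the values of the 10 genes was not tested. The median log2 differences were 0.40, 0.38, 0.21 and 0.37 on Days 4, 9, 17 and 24, where the median over all genes tested lay between -0.02 and 0.01. On Day 4, 0 of 10 were called (background of genes called higher 3.91% of 12620), 0 had an unadjusted p under 0.05 and DESeq2 called 0. Ppbp had the largest value, 0.47 (SE 0.24, adjusted p = 0.247, 95% interval from -0.01 to 0.94). Within the numbering series the Day 4 medians were 0.59 (4-digit) and 0.70 (3-digit), with 0 called in each.

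On Day 9, 0 of 10 were called (background 3.63%), although 9 had an unadjusted p under 0.05 and DESeq2 called 0. By adjusted p alone, without the fold, 6 of 10 passed, against 9.43% of all genes that were higher under that rule. These were Itga2b, Itgb3, Gp1ba, Gp5, Gp9 and Treml1. Treml1 was 0.44 higher in responders (SE 0.12, adjusted p = 0.00745), a 1.36-fold difference. Itga2b log2 CPM spanned 6.25 to 8.13 (median 7.44) among responders, while non-responders spanned 6.05 to 7.85 (median 6.95), so that the groups overlapped over most of their range. Within the numbering series the Day 9 medians were 0.32 (4-digit) and 0.04 (3-digit), and none passed by adjusted p alone, the lowest being 0.433 and 0.796 (edgeR). With the series as a covariate the median was 0.20 and the lowest adjusted p 0.238, so that none of the 6 passed. On the other scales, where all 10 were lower in responders, adjusted p alone was also passed in the opposite direction. The lowest adjusted p was 0.00184 with total counts alone (edgeR). With limma it was 0.0005 on log2(TPM + 0.1) and 0.000757 on log2(TPM + 1).

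On Day 17, 0 of 10 were called (background 0.224%), 2 had an unadjusted p under 0.05 and DESeq2 called 0. Within the numbering series the medians were 0.06 and -0.25, and with the series as a covariate 3 of the 10 differences were above 0. On Day 24, 0 of 10 were called (background 0.192%), 4 had an unadjusted p under 0.05 and DESeq2 called 0. Gp5 differed by 0.50 (SE 0.18, adjusted p = 0.0634) and Gp1ba by 0.50 (SE 0.17, adjusted p = 0.0558). Without the library of non-responder 29 from Day 24, 2 of 10 were called higher in responders, against 0.666% of all genes. These were Vwf (0.65, SE 0.16, adjusted p = 0.0036) and Gp5 (0.60, SE 0.15, adjusted p = 0.00441). By adjusted p alone, all 10 passed without that library, with log2 differences from 0.39 for Pf4 to 0.65 for Vwf, against 12.6% of all genes that were higher under that rule. With the series as a covariate the Day 24 median was 0.21 and the lowest adjusted p 0.341 (edgeR, that library included). Within the numbering series none passed. Mice with 4-digit numbers had differences of -0.48 to -0.04 with that library and of 0.21 to 0.33 without it, and mice with 3-digit numbers, 4 of them responders, had differences of 0.61 to 0.89.

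The direction between responders and non-responders depended on the scale. When counts were scaled to the library total alone, without a TMM factor, all 10 genes were lower in responders on Days 4 and 9, with median log2 differences of -0.48 and -0.32. On Day 4, 1 of the 10, Gp1ba, was called lower (-0.59, SE 0.18, adjusted p = 0.00991), against 70.2% of all genes. Under that scaling the median over all genes tested was itself at -0.69 and -0.70, so that relative to it the 10 genes lay on the higher side. With limma the place of the 10 genes turned with the pseudocount. On log2(TPM + 0.1) their medians were -0.48 on Day 4 and -0.34 on Day 9 against -0.63 and -0.59 over all genes, and on log2(TPM + 1) they were -0.42 and -0.28 against -0.27 and -0.26. The summed TPM of the 10 genes, which divides by a total made up mostly of hemoglobin, had medians of 271 in responders and 398 in non-responders on Day 4 and of 180 and 174 on Day 24. On this scale the non-responders' medians went down from 398 over 275 and 273 to 174, and those of responders went 271, 203, 276 and 180.

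The total-count scale also moved the changes over time. On Day 17, 9 of 10 genes were called lower in non-responders, against 68.3% of all genes, and the median over all genes was -0.43. On Day 24, the difference of changes was called for all 10 genes, higher in responders, against 7.41% of all genes called in that direction, with a median of 0.83 over the 10 and 0.53 over all genes. Log2 CPM of the members correlated across the 178 libraries with the hemoglobin share at r of 0.46 to 0.59 and with the log2 TMM factor at r of -0.59 to -0.71. Log2 TPM did so with the opposite signs (-0.45 to -0.63 and 0.40 to 0.57). These correlations are descriptions, since both scales share the library totals, and the part of red cell RNA in the results was not tested.

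**Figure D3:**
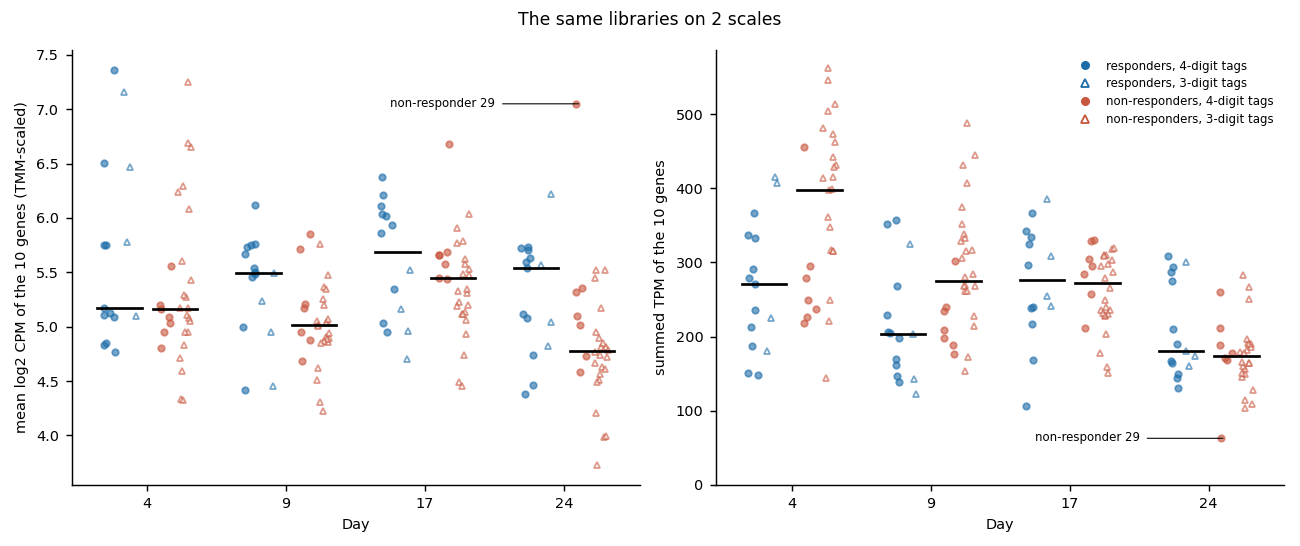
Left, the mean log2 CPM of the 10 genes per library; right, their summed TPM; horizontal axis day, bars are medians, filled circles mice with 4-digit numbers, open triangles 3-digit. Non-responder 29 on Day 24 is the highest of its group on the left (7.05) and the lowest on the right (62.5 TPM).

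The fall in non-responders was also split by the mouse numbering. The mean log2 CPM of the 10 genes in non-responders with 3-digit numbers ranged from 4.33 to 7.25 (median 5.17) on Day 4 and from 3.73 to 5.52 (median 4.74) on Day 24. In those with 4-digit numbers it ranged from 4.80 to 5.56 (median 5.08) on Day 4 and from 4.58 to 7.05 (median 5.10) on Day 24, where the highest value is non-responder 29. The widest Day 4 spread and the lowest Day 24 libraries thus both lay in mice with 3-digit numbers. Among mice with 3-digit numbers, 10 of 10 genes were called lower on Day 9 (background 28.7% of all genes lower) and 10 of 10 on Day 24 (background 28.4%), with median log2 changes of -0.62 and -0.86. Among the 7 non-responders with 4-digit numbers none was called on either day, and the median changes were 0.16 and 0.37. Without the library of non-responder 29 from Day 24, when 6 Day 24 libraries were set against the Day 4 libraries of all 7 mice, the fitted Day 24 change in 4-digit mice was -0.38 (SE 0.19) in Pf4, -0.27 (SE 0.22) in Ppbp and 0.03 (SE 0.19) in Itga2b, none called. The medians of the summed TPM were lower on Day 24 in both series, at 415 and 166 TPM in mice with 3-digit and at 249 and 177 TPM in mice with 4-digit numbers, without a test. The difference between the numbering series was not tested, and series and response overlap, since 23 of the 30 non-responders and 4 of the 15 responders carry 3-digit numbers.

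The 10 genes varied together between libraries. After the mean of each day and response group was subtracted, the 45 pairs of members had Pearson correlations of log2 CPM from 0.86 (Pf4 with Vwf) to 0.98 (Itga2b with Itgb3), median 0.95, over 178 libraries. Over all pairs of 13688 genes the median was 0.00 and the 95th percentile 0.42, and 0.140% of pairs were at or above the lowest member pair. The median stayed between 0.92 and 0.95 with series means subtracted, within either series, without non-responder 29 on Day 24, and on log2(TPM + 1). Points share the library and its scaling factor, and mice contribute up to 4 points each. The chemokines were the looser members, Pf4 with a mean r of 0.91 to the others, and Itga2b the tightest with 0.96.

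**Figure D4:**
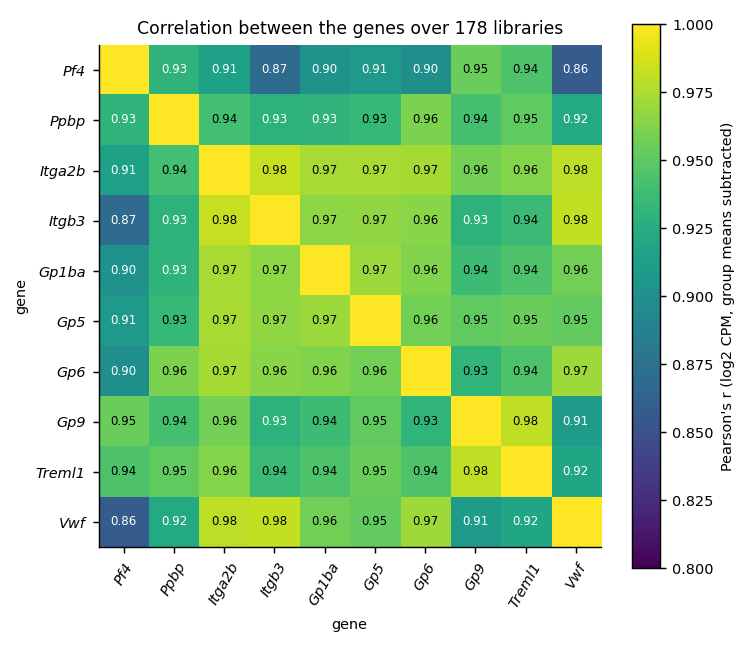
Pearson r of log2 CPM between the 10 genes over 178 libraries, with group means subtracted, as a colored matrix. Values run from 0.86 to 0.98, and the lowest stand in the Pf4 row, with Vwf and Itgb3.

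The genes outside the 10 whose pattern was most like their mean were Alox12, the platelet 12-lipoxygenase (r = 0.99), and Pttg1ip, Srxn1, Parvb and Mfsd2b (0.99 each), followed by Clu, Mpig6b, Myl9 and Clic4 (0.98 each), over the same 178 libraries. Of the platelet lists, the median r was 0.90 over 15 receptors and surface proteins (0.17 to 0.98), 0.91 over 13 granule and secreted proteins (-0.26 to 0.98) and 0.94 over 15 cytoskeletal and signalling proteins (0.80 to 0.99). The 9 measured megakaryocyte transcription factors had a median r of 0.63 and varied from -0.49 (Fli1) over 0.91 (Nfe2) to 0.95 (Tal1).

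For markers of other cells, the median r with the mean of the 10 genes was 0.20 over 8 neutrophil markers, 0.02 over 8 monocyte markers, 0.25 over 7 T cell markers and -0.21 over 5 B cell markers. It was 0.68 over 9 red cell markers, the 4 hemoglobin genes at 0.68 to 0.72, and what red cells contribute to the shared variation was not tested. For Vwf, whose other source is the vessel wall, the endothelial markers were measured. Of 10 such markers, Cdh5, Kdr, Tie1, Tek, Emcn, Robo4 and Nos3 were each at a mean of 0.033 TPM or less, Egfl7 at 0.076 TPM and Plvap at 0.151 TPM, against 6.41 TPM for Vwf. Pecam1, which platelets also carry, was at 5.83 TPM. The median r with the 10 genes was 0.60 over the 6 endothelial markers that passed the filter, with Pecam1 at 0.92, Plvap at 0.77, Kdr at 0.66, Tie1 at 0.54, Egfl7 at 0.02 and Cdh5 at -0.10. The summed endothelial list, nearly all of it Pecam1, had medians of 4.51 TPM in responders and 8.76 TPM in non-responders on Day 4 and of 5.51 and 5.01 TPM on Day 24, with a range of 0.65 to 15.1 TPM over all libraries. Their part in the Vwf values was not tested beyond these levels.

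The level of the chemokines relative to the integrin subunits was lower on later days in both groups. The mean log2 count of Pf4 and Ppbp minus the mean log2 count of Itga2b and Itgb3, called the log2 ratio here, does not depend on the scaling of a library. It was chosen after its values were seen and is given without a test. In responders its mean was 0.29 ± 0.33 (SD, n = 15) on Day 4, -0.01 on Day 9, 0.01 on Day 17 and -0.25 ± 0.13 on Day 24, and it was lower on Day 24 than on Day 4 in 15 of 15 mice. In non-responders it was 0.18 ± 0.21 (n = 29), 0.10, -0.13 and -0.16 ± 0.17 (n = 30), and it was lower on Day 24 in 28 of 29 mice.

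The mean change of the ratio by Day 24 was -0.54 in responders and -0.33 in non-responders. It had the same sign in both numbering series, at -0.52 and -0.57 in responders and -0.41 and -0.31 in non-responders with 4-digit and 3-digit numbers, and was -0.33 without non-responder 29. The ratio of Gp9 and Treml1 to the same integrins changed less, by -0.23 in responders, where 14 of 15 mice were lower, and by -0.09 in non-responders, where 19 of 29 were. Transcript length moves with this ratio: the exons of Pf4, Ppbp, Gp9 and Treml1 cover 721, 1083, 881 and 1402 bases and those of Itga2b and Itgb3 5454 and 5901. Over all genes tested, the median log2 change in responders by Day 24 was -0.27 for genes of up to 1500 exon bases, -0.05 for longer genes of up to 5000 and 0.07 for those above 5000, and in non-responders -0.10, -0.00 and 0.04. The part of length in the ratio was not tested.

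**Figure D5:**
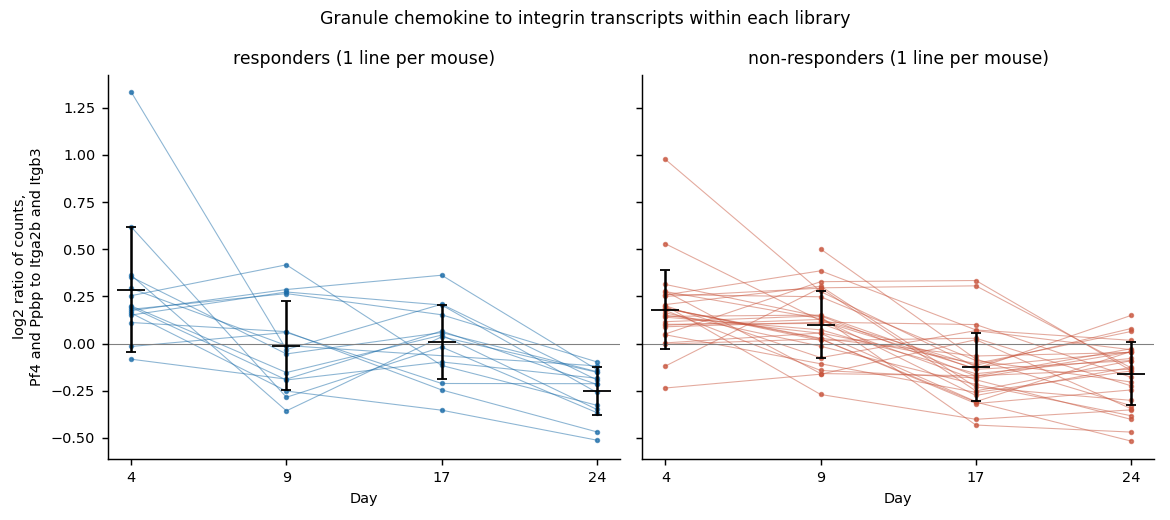
Log2 ratio of the counts of Pf4 and Ppbp to those of Itga2b and Itgb3 (vertical axis) by day, 1 thin line per mouse, black marks the mean ± SD, responders and non-responders in separate panels. The mean goes from 0.29 to -0.25 in responders and from 0.18 to -0.16 in non-responders.

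The wider platelet program showed where the 10 genes stand among their partners. In non-responders on Day 24, 12 of 15 further receptors and surface proteins were called lower and 1 higher, where 24.8% of all genes were called lower and 23.8% higher. P2ry12, the ADP receptor targeted by clopidogrel, fell by 0.90 on the log2 scale (SE 0.14, adjusted p = 5.75e-08), and the tetraspanin Cd9 fell by 0.60. The exception was Cd36, a thrombospondin receptor also found on monocytes and red cell precursors, which rose by 0.99 (SE 0.18, adjusted p = 6.51e-06). Of 13 granule and secreted proteins, 8 were called lower, among them Nrgn, a calmodulin-binding protein abundant in platelets, which fell by 1.05, and Tgfb1, which leukocytes also express and which fell by 0.58. Of 15 cytoskeletal and signalling proteins, 14 were called lower, with the talin gene Tln1 at -0.35 and the small GTPase gene Rap1b at -0.33. Among non-responders with 4-digit numbers 0 of these receptors, granule and cytoskeletal proteins were called lower, and the list medians were 0.06, 0.24 and 0.14, against -0.65, -0.69 and -0.55 in mice with 3-digit numbers.

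In responders on Day 24, 5 of 15 receptors, 5 of 13 granule proteins and 4 of 15 cytoskeletal and signalling proteins were called lower, against 9.94% of all genes. Nrgn fell by 1.20 (SE 0.23, adjusted p = 0.000409), and P2ry12 fell by 0.71. With total counts alone 0 receptors, 1 granule protein and 0 cytoskeletal and signalling proteins were called lower, the 1 being Nrgn (-0.77, SE 0.18, adjusted p = 0.00812). The transcription factors of megakaryocytes, most of which leukocytes or red cell precursors share, did not move as 1 block on the TMM scale. In non-responders on Day 24, 3 of 9 were called lower (8 of 9 with total counts alone, where the median over all genes was -0.44), among them Gfi1b, which fell by 0.82, and Runx1, which fell by 0.12. In responders, Nfe2 fell by 0.49, Zfpm1 fell by 0.46 and Fli1 rose by 0.36, and for Fli1 the difference of changes passed (0.43, SE 0.12, adjusted p = 0.0264).

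Between responders and non-responders on single days, few of these partners were called on the TMM scale, all higher in responders, where 3.91%, 3.63%, 0.224% and 0.192% of all genes were called higher on Days 4, 9, 17 and 24. Cd36 was higher on Day 4 (0.78, SE 0.19, adjusted p = 0.00581) and on Day 9 (0.73, SE 0.13). Gp1bb, the remaining subunit of the von Willebrand receptor, was higher on Day 9 (0.65, SE 0.14, adjusted p = 0.000671) and on Day 17 (0.68, SE 0.18, adjusted p = 0.0422), where Gp1ba, Gp5 and Gp9 had 0.21, 0.31 and 0.31 and did not pass. Gfi1b was higher on Day 24 (0.59, SE 0.14, adjusted p = 0.00755). None of these calls was made with total counts alone, where Cd36 had -0.15 on Day 4 and 0.07 on Day 9, Gp1bb -0.02 on Day 9 and 0.45 on Day 17, and Gfi1b 0.45 on Day 24. With the numbering series as a covariate only Cd36 on Day 4 was called of these (0.89, SE 0.22, adjusted p = 0.00972). Red cell markers were also called higher in responders on Days 4 and 9 on the TMM scale, and their part in the Cd36 values was not tested.

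Finally, it was examined whether a mouse with high Pf4 on 1 day had high Pf4 on another, over the 6 pairs of days with group means subtracted (100000 permutations, two-sided, Benjamini-Hochberg over the 6). Day 9 and Day 17 correlated at r = 0.55 over 44 mice (permutation p = 9e-05, adjusted 0.00054; Spearman's rho 0.56, adjusted 0.00042). The value was 0.49 without the 2 mice farthest from the median, 0.69 in mice with 4-digit and 0.44 in mice with 3-digit numbers. Day 17 and Day 24 correlated at r = 0.44 over 44 mice (permutation p = 0.00269, adjusted 0.00807; rho 0.52, adjusted 0.00105), and at 0.41 without 2 mice. Day 9 with Day 24 gave r = 0.22 (adjusted permutation p = 0.278), and Day 4 with any later day gave r between -0.01 and 0.15, with adjusted permutation p between 0.483 and 0.944. Only Pf4 was examined in this way, and on the TMM scale alone. Across the 178 libraries its log2 CPM correlated at r = -0.59 with the log2 TMM factor and at 0.47 with the hemoglobin share. The part of library composition in these correlations between days was not tested.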

How the data were processed

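Whole-blood polyadenylated RNA of 45 mice on 4 days was sequenced after SMARTer library preparation, 178 libraries in all. The authors deposited estimated counts per gene, not whole numbers, and a second table of TPM values. The submitters' processing notes name STAR and mm10, and the counting tool is not given in the sources used here. All 55450 gene identifiers match GENCODE M21, and 0 columns were left unmatched to a sample. Mice were assigned by the title and response label of each library. Estimated counts were rounded to whole numbers, genes filtered with filterByExpr, scaled by TMM and tested with the edgeR 4.0.16 quasi-likelihood test in R 4.3.3, with Benjamini-Hochberg adjustment over all genes tested. SE is the log2 fold change divided by the square root of F. Responders were compared with non-responders within each day (call: adjusted p of at most 0.05 and 1.5-fold), each later day with Day 4 within each group, and those changes between groups (adjusted p of at most 0.05). Plotted log2 CPM used a prior count of 2.

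Alternatives were DESeq2 1.42.0, RLE factors, hemoglobin genes removed, no filter, limma 3.58.1 on log2(TPM + 0.1) and log2(TPM + 1), the numbering series as covariate or split, mouse as a replicate block, the doubtful libraries moved or left out, other call rules and each mouse left out. Scaling to total counts, the 4-digit series without non-responder 29 on Day 24, and adjusted p alone without that library were chosen after seeing the data. The block pairs libraries of 1 animal. Deviations of a mouse from the group means correlated across genes at a mean r of -0.05 to 0.10 between days. On simulated counts, changes of 1.5-fold and 2-fold were recovered for 69 and 96 of 100 genes in the Day 4 comparison (12620 genes). The counts were 75 and 93 for responders on Day 24 (12560 genes) and 87 and 97 for non-responders on Day 24 (13009 genes). For the difference of changes on Day 24 (13688 genes) they were 72 and 86. False calls numbered 6, 11, 7 and 15 in this order. Recovery was scored by adjusted p alone. The Day 4 call also asks 1.5-fold, so 69 and 96 do not give the recovery under that call. Simulated libraries were drawn independently, without sharing a mouse.

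The members and lists were chosen with earlier results of these data known. All 10 members are named, and of the platelet lists the 2 called genes of smallest p on either side in a comparison, plus the 10 genes most correlated with the members' mean. A few genes that this rule names are not reported here. Promoters are from RefSeq (GRCm38.p6).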

Additional observations from a re-analysis of the deposited data

How the results depend on the processing

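The values below are numbers of the 10 genes called. Between responders and non-responders, the count stayed at 0 on every day under DESeq2, RLE factors, removal of hemoglobin genes, no filter and limma. Exceptions were 1 on Day 4 with total counts alone (lower, as were 70.2% of all genes), 6 on Day 9 by adjusted p alone on the TMM scale, and on Day 24 without non-responder 29 2, or 10 by adjusted p alone. For responders on Day 9 it was 2 with DESeq2 and RLE factors, 0 with limma on either TPM scale, with total counts and in 4-digit mice, and 3 in 3-digit mice. For responders on Day 24 it was 0 with limma on either TPM scale, with total counts and within either series. For non-responders it was 0 on Day 9 and 4 on Day 24 when 1.5-fold was also asked, 0 in 4-digit mice on both days (Day 24 also without non-responder 29), and on Day 17 7 with limma on both TPM scales (49.5% and 60.3% of all genes), 9 with total counts (68.3%) and 3 in 3-digit mice (27.8%). The difference of changes on Day 24 was called for 10 genes with limma on either TPM scale and with total counts. The causes were not tested.

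With mouse as a replicate block, pairing by animal, the counts were 2 for responders on Day 9, 3 on Day 24, 9 for non-responders on Day 9 and 10 on Day 24, and 0 elsewhere. The block changed no other call.

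Leaving out each mouse gave 0 to 0 on Days 4, 9 and 17 and 0 to 2 on Day 24 between the groups, 0 to 2, 0 to 1 and 1 to 4 in responders on Days 9, 17 and 24, and 4 to 10, 0 to 2 and 6 to 10 in non-responders. It was not run for the differences of changes.

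In the 7 non-responders with 4-digit numbers, 8 of the called Day 9 log2 changes turned positive: Itga2b 0.19, Itgb3 0.11, Gp1ba 0.18, Gp5 0.18, Gp6 0.065, Gp9 0.23, Treml1 0.22 and Vwf 0.14. On Day 24 Pf4 was 0.12, Ppbp 0.12, Itga2b 0.62, Gp1ba 0.18, Gp5 0.32, Gp6 0.20, Gp9 0.77, Treml1 0.56 and Vwf 0.42. Without non-responder 29, only Itga2b (0.033) and Gp9 (0.013) of the called genes stayed positive.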
